A study of Rattus norvegicus with 3 samples.

Results

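The genes described here are Egfr, which encodes the epidermal growth factor (EGF) receptor, and the genes of 5 of its ligands, Tgfa, Hbegf, Areg, Ereg and Btc. They were taken by their gene symbols on the array platform, and all 6 had a value, out of 15037 named genes in the series. The cells belong to the keratinocyte line FRSK, which comes from the skin of fetal rats, and were grown in serum-containing medium. RNA was profiled on 3 whole-transcript arrays, with 1 array each for cells given Met-enkephalin (Met-ENK), for cells given the β-endorphin fragment β-END(1-9) and for unstimulated control cells. Each peptide was used at 100 nM over 24 h, and neither a vehicle nor a time is stated for the control. Met-ENK is a short opioid peptide whose residues also open β-END(1-9), a fragment that carries further residues of the β-endorphin chain. No further treatment or genetic change is named for any of the 3 conditions. Since the series holds no replicates, all differences given here compare 1 array with 1 other array and have no replicate check, no test and no p-value.

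The EGF receptor is a tyrosine kinase of the cell surface that dimerises when a ligand binds and then signals through the ERK, phosphoinositide 3-kinase and STAT pathways. Its ligands are made as membrane-anchored precursors, from which metalloproteases of the ADAM family release the soluble growth factor. In the epidermis the receptor is most abundant in the basal layer, where its signalling promotes proliferation, survival and migration into wounds, and keratinocytes make several of the ligands themselves. Some G protein coupled receptors, the class to which the classical opioid receptors belong, can activate the EGF receptor through shedding of HB-EGF. Activity of these proteins depends on shedding and phosphorylation, which mRNA arrays do not measure.

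None of the 6 genes differed by 1.5-fold (0.58 on the log2 scale) between any of the 3 pairs of arrays. Of all named genes, 7.19% differed by 1.5-fold for Met-ENK minus control, 4.61% for β-END(1-9) minus control and 5.56% for Met-ENK minus β-END(1-9). Of the 18 pairwise differences of the members, 11 were under 0.1 in size and 4 of these were exactly 0. Over all named genes the median size of difference was 0.110, 0.087 and 0.106 in the same order. Differences of exactly 0 made up 26.9%, 29.7% and 26.8%, so small differences were common among all genes. Tgfa was the member that varied most, with the signal on the Met-ENK array 1.43-fold that on the β-END(1-9) array. Egfr, Hbegf and Areg varied over the 3 arrays by at most 0.093, Btc by 0.18 and Ereg by 0.24 on the log2 scale.

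**Figure D1:**
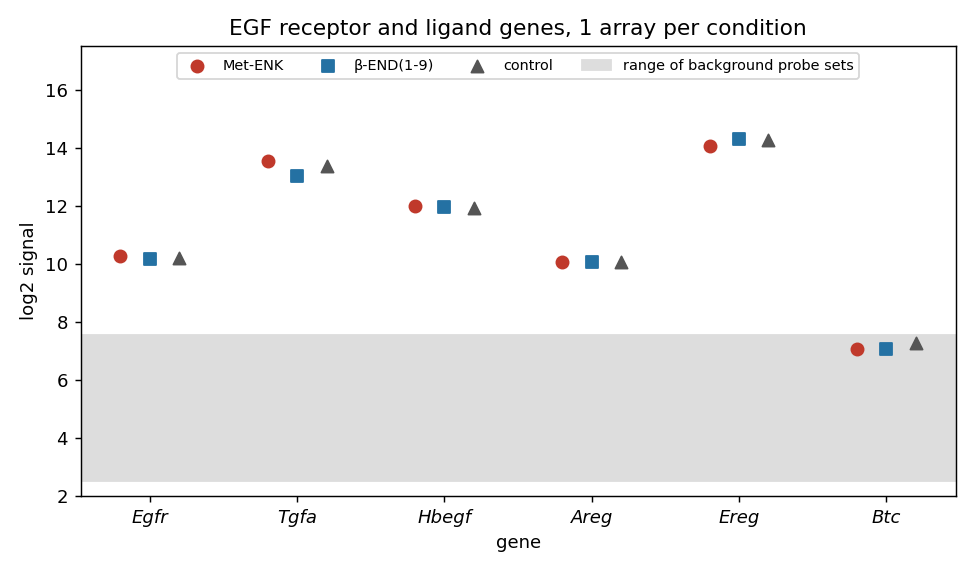
The log2 signal (vertical axis) of the receptor gene and its 5 ligand genes (horizontal axis) is shown for the Met-ENK, β-END(1-9) and control arrays, 1 point per array, and shading marks where the 23 background probe sets lay, 2.51 to 7.57. The 3 points of each gene lie close together, furthest apart for Tgfa, and only Btc lies inside the shaded range.

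The arrays were alike in the median over all transcript clusters, and the label of the cells was checked on marker genes. Median log2 signals over 23188 transcript clusters were 5.96 for Met-ENK, 5.97 for β-END(1-9) and 5.93 for control. These lie below the median of the background probe sets, 6.19, and say little about higher signals. Among named genes with a mean above the background probe sets, 22 were 1.5-fold higher and 365 lower for Met-ENK minus control. For β-END(1-9) minus control 14 were higher and 115 lower. The 399 positive control probe sets of the array had median differences of -0.23 for Met-ENK minus control and -0.12 for β-END(1-9) minus control, and the part of this shift in the results was not tested. All 6 measured genes of 12 listed basal keratinocyte markers were above the background probe sets on the 3 arrays, among them Krt14, the keratin of basal cells, at 16.61 with Met-ENK, 16.63 with β-END(1-9) and 16.70 in control. The other 6, Krt5 and Trp63 among them, were not analysed here. Of the markers of other cell types, 2 of 8 fibroblast (Col1a1 and Col3a1), 1 of 4 melanocyte (Mitf), 1 of 6 immune (Cd14) and 0 of 4 endothelial genes were above background on all 3 arrays. The defining genes Pdgfra, Tyr, Ptprc and Pecam1 lay within the background range on every array.

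Egfr had log2 signals of 10.25 with Met-ENK, 10.16 with β-END(1-9) and 10.20 in control. All 23 background probe sets lay below it on each array, and its distance above the highest of them was 2.69, 2.59 and 2.63 in the same order. The 1153 negative control probe sets of the array spread more widely, and 94.4%, 94.9% and 95.1% of them lay below Egfr on the Met-ENK, β-END(1-9) and control arrays. Its differences were 0.059 for Met-ENK minus control, -0.034 for β-END(1-9) minus control and 0.093 for Met-ENK minus β-END(1-9). Differences at least this large in either direction were found for 60.2%, 61.9% and 52.8% of the 15037 named genes in these comparisons. The β-END(1-9) difference turned positive, up to 0.055, under 3 of 5 other scalings of the signals, and has no settled direction. Of these 5, removal of the planned trend along genomic span returned the deposited value of every member in both comparisons with control. For those comparisons it could change no sign, here or below.

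Tgfa encodes transforming growth factor α, a ligand that keratinocytes make and respond to. Its log2 signals were 13.55 with Met-ENK, 13.04 with β-END(1-9) and 13.35 in control. The Met-ENK array had the highest signal and the β-END(1-9) array the lowest, with the control array between them. The differences were 0.20 for Met-ENK minus control, -0.32 for β-END(1-9) minus control and 0.51 for Met-ENK minus β-END(1-9). Both comparisons with control use the same control array. Against control, 11.4% of the 6280 named genes with a mean above the background probe sets were as high or higher with Met-ENK, and 11.7% were as low or lower with β-END(1-9). Between the peptides 2.85% of them were as high or higher, and Tgfa lay beyond the 95th percentile of these genes, 0.44. In either direction and over all named genes, the measure used for Egfr, the shares were 36.2%, 17.9% and 8.19% in the 3 comparisons. Of all named genes, 15.7% had a range over the 3 arrays at least as wide, and Tgfa had the widest range of the members. Under 5 other scalings the difference between the peptides was 0.42 to 0.53, so it kept its direction and stayed short of 1.5-fold. The differences from control kept their signs but varied in size, at 0.17 to 0.26 with Met-ENK and -0.35 to -0.18 with β-END(1-9). Among the 5 ligand genes Tgfa, Hbegf, Areg, Ereg and Btc, Tgfa has the longest genomic span, at 82.8 kb, and among genes above background the Met-ENK minus β-END(1-9) difference followed span, with medians by span class between -0.22 and 0.097. With that trend removed the Tgfa difference was 0.42.

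At a lower threshold, a log2 difference of 0.32, Tgfa between the peptides was the only 1 of the 18 differences to pass. In either direction this threshold was passed by 21.9% of named genes for Met-ENK minus control, 17.3% for β-END(1-9) minus control and 20.6% for Met-ENK minus β-END(1-9). At 1.5-fold, 7.19% of named genes differed in either direction for Met-ENK minus control, 4.61% for β-END(1-9) minus control and 5.56% for Met-ENK minus β-END(1-9), against 0 of 6 members in each. With 6 genes and shares of this size, a count of 0 is no result about the members.

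**Figure D2:**
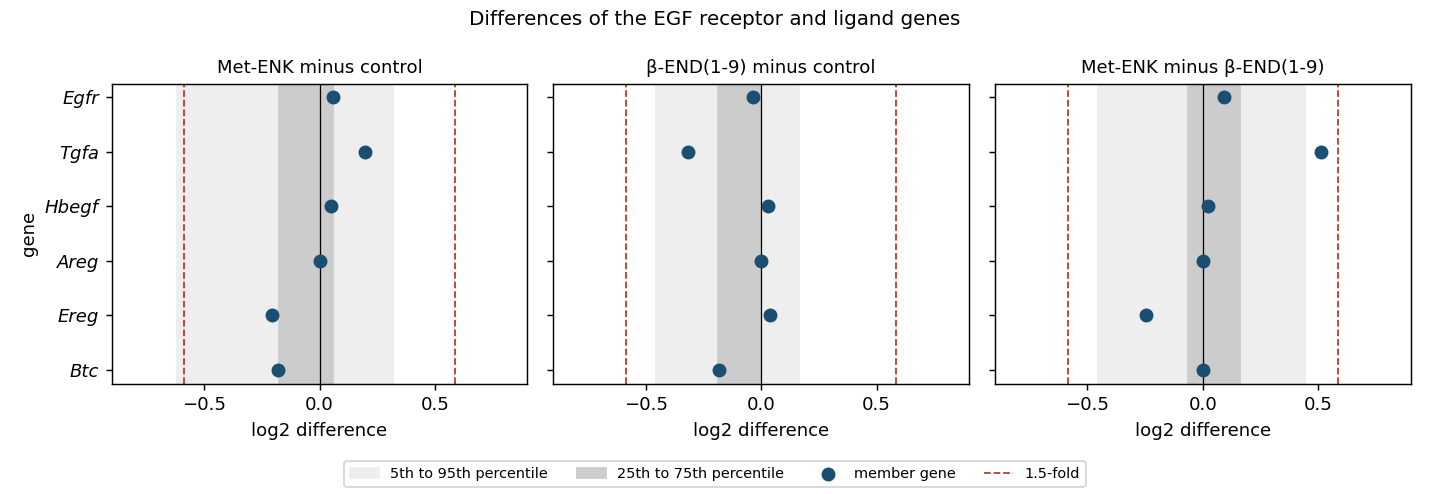
Log2 differences (horizontal axis) of the 6 genes (vertical axis) are shown for Met-ENK minus control, β-END(1-9) minus control and Met-ENK minus β-END(1-9), over the percentile ranges of 6280 named genes with a mean above the background probe sets (Btc itself lies below this level). Dashed lines mark 1.5-fold, which no point passes, and Tgfa at 0.51 between the peptides is the only point outside the 5th to 95th percentile range.

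Hbegf encodes HB-EGF, the heparin-binding ligand released during wound closure and in the indirect activation of the receptor described above. Its log2 signals were 11.98 with Met-ENK, 11.95 with β-END(1-9) and 11.93 in control. The 3 values spanned 0.050, the smallest range above 0 of the members, and lay at least 4.36 above the highest background probe set on each array. Of the named genes, 75.8% had a wider range over the 3 arrays or one equally wide. The differences were 0.050 for Met-ENK minus control, 0.028 for β-END(1-9) minus control and 0.022 between the peptides. The last of these differences turned negative under 2 of 5 other scalings and the β-END(1-9) difference under 1.

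Ereg encodes epiregulin, which binds the EGF receptor and ErbB4. Its log2 signals were 14.05 with Met-ENK, 14.29 with β-END(1-9) and 14.25 in control. The Met-ENK array was the low one, and the β-END(1-9) and control arrays nearly coincided. The difference was -0.20 for Met-ENK minus control, a ratio of 0.868, and -0.24 for Met-ENK minus β-END(1-9). Differences as low or lower were found in 22.9% and 13.0% of the named genes above background in these comparisons. The β-END(1-9) array differed from control by 0.039. All 3 differences kept their sign under 5 other scalings, at -0.23 to -0.13, -0.30 to -0.23 and 0.00085 to 0.13. The Met-ENK minus control difference of Ereg was close to the median of the positive control probe sets in the same comparison, -0.23. The median of the named genes above background was 0 there, and the part of that shift in the Ereg value was not tested. Tgfa and Ereg therefore ordered the peptide arrays in opposite ways, with Met-ENK above β-END(1-9) for Tgfa and below it for Ereg.

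Areg encodes amphiregulin, a ligand known as an autocrine growth factor of keratinocytes. Its log2 signal was 10.07 on each of the 3 arrays, equal to the last deposited digit. All 3 differences are thus exactly 0. Equal values were common in the deposited table. Of the named genes, 15.5% had 1 value on all 3 arrays, and of the 2265 named genes within 1 log2 unit of the Areg mean 280 did (12.4%). A difference of 0 therefore carries no more precision than the small differences of the other members. Areg lay 2.51 above the highest background probe set, and of the 1153 negative control probe sets 70, 60 and 58 were at or above it on the Met-ENK, β-END(1-9) and control arrays.

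Btc encodes betacellulin, a ligand of the EGF receptor and ErbB4. Its log2 signals were 7.08 with Met-ENK, 7.08 with β-END(1-9) and 7.26 in control. These values lay within the background range, below 2 of the 23 background probe sets on each array, and 64.4%, 66.8% and 69.4% of the negative control probe sets lay below Btc in the same order. Whether Btc was transcribed cannot be told at this level. The peptide arrays had exactly equal values, so the difference of -0.18 from control is a single value shared by both comparisons and not one seen on separate occasions.

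Areg, Ereg and Btc are neighbours on rat chromosome 14. In the GRCr8 gene order, counting protein-coding genes, Btc is followed by Areg, Ereg and Epgn, the gene of a further ligand, epigen, which was not analysed here. The outer neighbour Parm1 had 14.22 with Met-ENK, 14.08 with β-END(1-9) and 14.17 in control, and Mthfd2l on the other side had 8.91, 9.10 and 8.64. The 3 measured ligand genes of this cluster had Met-ENK minus control differences of -0.18 (Btc), 0 (Areg) and -0.20 (Ereg), and β-END(1-9) minus control differences of -0.18, 0 and 0.039.

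Promoter sequences are given for Areg and Tgfa, the ligand genes with the narrowest and the widest range over the 3 arrays, and for the receptor gene. The 2 ligand genes were picked by these same signals, and a link between promoter sequence and signal was not tested. Each is the run of 250 bases before the annotated start in RefSeq's GRCr8 annotation, 5′ to 3′ on the strand of the gene, and 5 of the 6 members had an entry, all but Ereg. Capitals mark matches on either strand to the cAMP response element TGACGTCA, the AP-1 site TGAGTCA, the TATA box TATAAA and the GC box GGGCGG. The cAMP response element is background of interest because classical opioid receptors couple to G proteins that lower cAMP.
Areg, chr14:17265642-17265891, minus strand: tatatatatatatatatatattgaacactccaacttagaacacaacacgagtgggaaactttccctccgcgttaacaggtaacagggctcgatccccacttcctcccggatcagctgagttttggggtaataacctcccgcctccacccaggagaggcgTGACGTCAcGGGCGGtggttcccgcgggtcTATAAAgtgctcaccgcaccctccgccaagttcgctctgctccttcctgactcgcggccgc
Tgfa, chr4:120175469-120175718, plus strand: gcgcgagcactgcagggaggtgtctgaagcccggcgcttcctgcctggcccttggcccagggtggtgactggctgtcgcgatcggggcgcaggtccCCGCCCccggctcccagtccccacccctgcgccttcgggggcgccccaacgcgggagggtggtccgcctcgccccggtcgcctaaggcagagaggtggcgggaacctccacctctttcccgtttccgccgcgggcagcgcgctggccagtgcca
Egfr, chr14:95378376-95378625, plus strand: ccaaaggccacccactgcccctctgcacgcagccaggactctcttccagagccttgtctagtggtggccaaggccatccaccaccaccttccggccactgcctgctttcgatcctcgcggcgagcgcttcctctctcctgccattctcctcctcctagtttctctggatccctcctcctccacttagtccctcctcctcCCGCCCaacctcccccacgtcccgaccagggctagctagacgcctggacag

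The Areg promoter held 1 match each to the cAMP response element, starting 91 bases before the annotated start, to the GC box at 82 bases and to the TATA box at 61 bases. Of 33469 rat promoter windows of the same length, 1.59% held the cAMP response element, 4.05% the AP-1 site, 12.9% the TATA box and 30.5% the GC box. Tgfa and Egfr each held 1 GC box and none of the other 3 motifs in this window, as did Btc, and Hbegf held none of the 4. The G and C content of the window was 74.4% for Tgfa, 63.6% for Egfr and 54.4% for Areg, beside a median of 51.2% over all windows. A match describes the letters of the sequence and is not a measured binding site.

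Genes with a pattern like that of Egfr and Tgfa were sought among the 6142 other named genes above the highest background probe set on every array, by the Euclidean distance between the 3 signals after each gene's mean was subtracted. Nearest to Egfr were Cyb5b (distance 0.0012), which encodes a cytochrome b5 of the outer mitochondrial membrane, Atad2 (0.0030), which encodes a chromatin-bound ATPase, and Capn1 (0.0034), a calpain protease. For Egfr, 2356 of the 6142 genes lay within a distance of 0.1, so this flat pattern was common. Nearest to Tgfa were Vps13b (0.0039), a lipid transfer protein of the Golgi, Casp8ap2 (0.011), which encodes a caspase-8 binding protein, and Pcmtd1 (0.012), and 130 genes lay within 0.1. Vps13b, the closest, had 10.20 with Met-ENK, 9.69 with β-END(1-9) and 10.00 in control. With 3 arrays such likeness is a description of 3 values only.

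The wider pathway was described with 75 listed genes in 6 lists, of which 62 were measured. Past 1.5-fold, 1 of these 62 was higher and 2 were lower for Met-ENK minus control, where 2.98% of named genes were higher and 4.21% lower. For β-END(1-9) minus control, 2 were higher and 1 lower, where 2.64% of named genes were higher and 1.97% lower. For Met-ENK minus β-END(1-9), 6 were higher and 3 lower (14.5% in all), where 2.51% of named genes were higher and 3.05% lower. The lists were chosen with earlier results of these data known, and were not matched to all named genes for signal level. The gap between these shares was not tested and is no result about the pathway. Of the 9 listed genes past 1.5-fold between the peptides, 4 (Adam10, Adam19, Fos and Spry4) lay within the background range. The same holds for every gene counted as higher against control, Adam19 with Met-ENK and Fos and Spry4 with β-END(1-9). Low signal was common among the genes past 1.5-fold over all named genes too. Of 448 higher for Met-ENK minus control, 22 had a mean above the background probe sets, as had 14 of 397 for β-END(1-9) minus control. Between the peptides, 103 of 377 higher and 149 of 459 lower genes had such a mean. The median difference of the 62 genes was 0.010, -0.055 and 0.042 in these comparisons, and that of all named genes was 0 in each.

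Among the other ErbB receptors, which form dimers with the EGF receptor, 0 of 3 passed 1.5-fold in any comparison. Of all named genes, 7.19% passed it for Met-ENK minus control, 4.61% for β-END(1-9) minus control and 5.56% for Met-ENK minus β-END(1-9). A count of 0 among so few genes, here and for the other ligand genes below, is thus no result about them. Erbb2, the partner without a known ligand, had 9.72 with Met-ENK, 9.31 with β-END(1-9) and 9.47 in control. The order of the arrays was that of Tgfa, with a Met-ENK minus β-END(1-9) difference of 0.41. Other listed genes had this order too, Adam17, Shc1 and Stat3 among them, and its share over all named genes is not given here. Erbb3, a receptor of neuregulins, had 8.54 on all 3 arrays, and Erbb4 stayed within the background range, at 3.09, 3.09 and 2.75. Of the 4 other measured ligand genes, 0 passed 1.5-fold. Nrg1, which encodes the ErbB3 and ErbB4 ligand neuregulin 1, was the only 1 of them above background on all 3 arrays, at 13.81 with Met-ENK, 13.29 with β-END(1-9) and 13.81 in control. Its β-END(1-9) minus control difference was -0.52. Egf itself had 6.09, 5.51 and 5.51, within the background range, and its Met-ENK difference from either of the other arrays lay just below 1.5-fold. The Met-ENK minus β-END(1-9) difference of Egf passed 1.5-fold under 3 of 5 other scalings.

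Among 10 measured genes of ligand shedding, Adam17, the main releasing enzyme of TGF-α, amphiregulin, epiregulin and HB-EGF, had 10.74 with Met-ENK, 10.59 with β-END(1-9) and 10.71 in control. The largest of its differences was 0.15, between the peptides. Adam10, which releases EGF and betacellulin, had 7.04, 6.45 and 6.76 and was 0.59 higher with Met-ENK than with β-END(1-9), a difference that passed 1.5-fold under 4 of 5 other scalings. Adam19 had 4.88, 3.79 and 4.17, with differences of 0.71 for Met-ENK minus control and 1.09 for Met-ENK minus β-END(1-9). Both genes lay within the background range on all 3 arrays. Cd9, a tetraspanin that associates with the HB-EGF precursor, had 14.10 with Met-ENK, 14.43 with β-END(1-9) and 14.71 in control. It was the only shedding gene lower by 1.5-fold, at -0.61 for Met-ENK minus control. After quantile normalization of the arrays this difference was -0.53 and no longer past 1.5-fold. The list medians were 0.026, -0.17 and 0.11 for Met-ENK minus control, β-END(1-9) minus control and Met-ENK minus β-END(1-9).

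The 14 measured adaptors and proximal kinases were all above background, and 0 of them passed 1.5-fold against control with either peptide. Of all named genes, 7.19% passed it for Met-ENK minus control and 4.61% for β-END(1-9) minus control. With 14 genes, a count of 0 beside such shares is no result about them. Stat3, a transcription factor that the receptor can activate, had 13.93 with Met-ENK, 13.31 with β-END(1-9) and 13.47 in control. It was 0.62 higher with Met-ENK than with β-END(1-9), and fell below 1.5-fold under 3 of 5 other scalings (lowest 0.56). Grb2, Shc1, Sos1 and Gab1, which link the receptor to RAS, and the 9 other genes stayed short of 1.5-fold in every comparison.

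Of 15 measured genes of receptor attenuation and trafficking, 14 were above background on all 3 arrays. The endosomal GTPase Rab5a had 12.32 with Met-ENK, 11.64 with β-END(1-9) and 11.92 in control, and Rab7a, of late endosomes, had 16.56, 15.87 and 16.09. Both had the order of Tgfa, as other listed genes did, and differed between the peptides by 0.68 and 0.70. Both stayed past 1.5-fold under all 5 other scalings, but the planned span trend left these differences unchanged. The span trend of genes above background also left that of Rab5a unchanged. Lrig2, a relative of the receptor inhibitor LRIG1, had 8.95, 8.35 and 8.95, which is 0.60 lower with β-END(1-9) than on either other array. The Lrig2 difference from control passed 1.5-fold under 2 of 5 other scalings and that between the peptides under 4. Errfi1, a feedback inhibitor of the receptor kinase, had 10.99, 10.98 and 11.15, a difference of -0.16 from control with either peptide.

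Of 16 measured output genes of the ERK pathway, Spry2, a feedback inhibitor of receptor signalling, had 10.14 with Met-ENK, 10.81 with β-END(1-9) and 10.81 in control. The Met-ENK array was 0.67 lower than either other array, and with the span trend of genes above background removed, as for Tgfa, the difference from control was -0.55 and short of 1.5-fold. Fos, an immediate early gene, had 4.77, 5.58 and 4.78, and Spry4 had 3.07, 3.75 and 2.97. Both were higher with β-END(1-9), by 0.80 and 0.78 against control, and their Met-ENK minus β-END(1-9) differences were -0.82 and -0.68. Both stayed within the background range on every array. Egr1, an immediate early target of ERK, had 13.80, 13.79 and 13.80, and Dusp6, a phosphatase of ERK, had 13.81, 13.78 and 14.06. The list medians were 0.00 for Met-ENK minus control, -0.055 for β-END(1-9) minus control and 0.025 for Met-ENK minus β-END(1-9). Erbb4, Egr1 and Dusp6 were named after their values were seen. Egf, Grb2, Shc1, Sos1 and Gab1 are also outside the naming rule given with the processing.

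**Figure D3:**
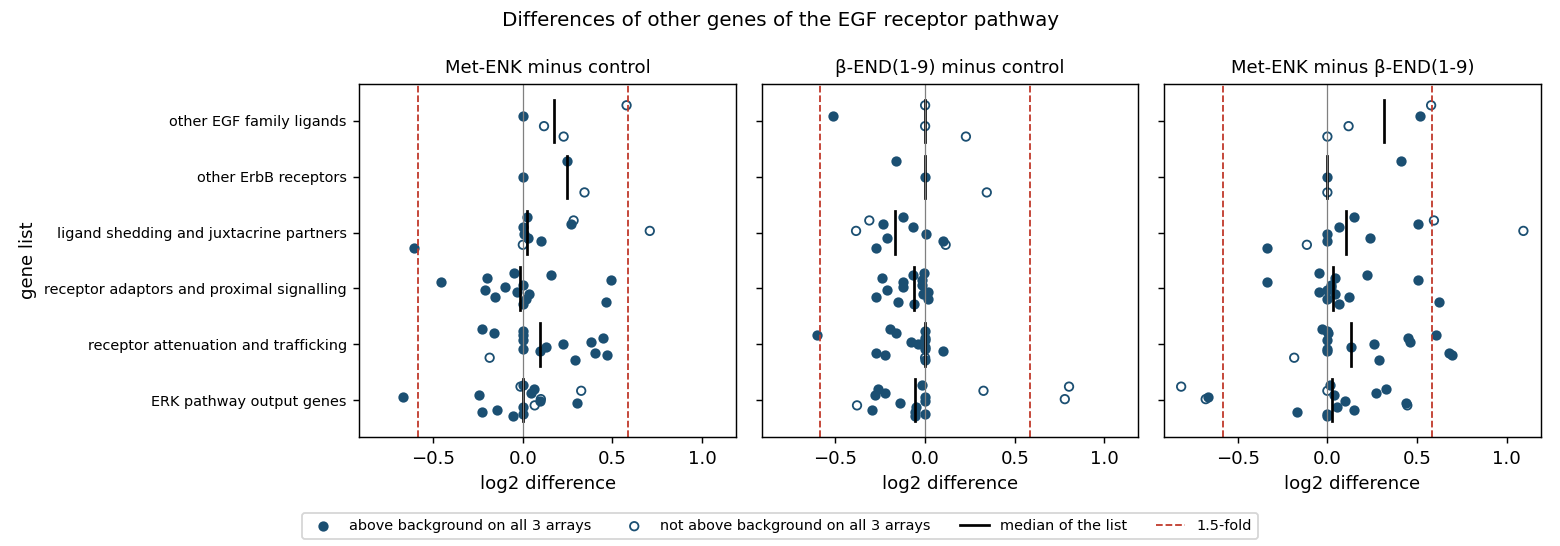
Each point is the log2 difference (horizontal axis) of 1 of 62 measured pathway genes, by list (vertical axis), for Met-ENK minus control, β-END(1-9) minus control and Met-ENK minus β-END(1-9). Filled points were above background on all 3 arrays, black bars are list medians, and the points past the dashed 1.5-fold lines number 3, 3 and 9 in the 3 panels.

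**Figure D4:**
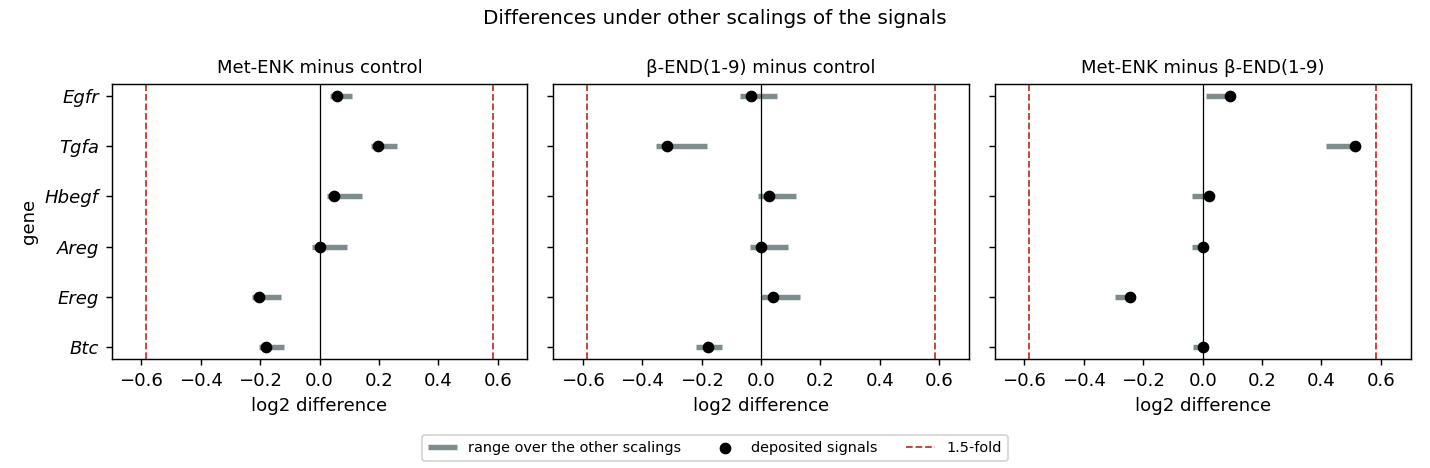
The black point is the log2 difference (horizontal axis) of each gene (vertical axis) from the deposited signals, and the grey bar spans it and its values under 5 other scalings, for the 3 comparisons. No bar reaches the dashed 1.5-fold lines, and the Tgfa and Ereg bars stay on 1 side of 0. The bars of Egfr and Hbegf cross 0 for β-END(1-9) minus control, and those of Hbegf and Btc for Met-ENK minus β-END(1-9). The Areg bars, around deposited differences of exactly 0, cross 0 in all 3 comparisons.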

How the data were processed

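The authors deposited log2 signals for each probe set. The submitters' processing notes list RMA (background correction, quantile normalization, probe summary) and Affymetrix console software. Neither versions nor the genome build are given in the sources used here. The platform annotation named 1 gene for 15049 of 23188 transcript clusters, all found by Entrez identifier in RefSeq's GRCr8 annotation. Control probe sets stayed out of gene counts. For 10 genes with several probe sets, the set with the highest mean was used. Groups came from the sample titles.

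Results are differences of log2 signals between 2 arrays, called at 1.5-fold, with no level filter and no test, since 1 array per group gives no spread. Precision is limited by the number of arrays. Of 23 background probe sets, 22 had 1 value on all 3 arrays. The members, lists and rules were chosen with earlier results of these data known. Named genes are the 6 members and, per list, genes past 1.5-fold or else the 2 with the widest range above background, besides fixed regulators, of which Cbl and Lrig1 were not analysed here. Alternatives were centring, quantile normalization, a loess trend (fraction 0.3), a trend over 20 classes of genomic span, other thresholds, level filters and the mean of several probe sets. The code for calls and scaling was run on simulated data with small noise and planted shifts well above the threshold. That setting cannot show how reliable calls are with 1 array per group. Python 3.11.15, pandas 2.3.3 and statsmodels 0.14.6 were used.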

Additional observations from a re-analysis of the deposited data

How the results depend on the processing

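No paired analysis was possible because each group has 1 array, and no replicate could be left out. The count of members past 1.5-fold stayed at 0 under every alternative except the lower threshold (a log2 difference of 0.32), where 1 (Tgfa) was higher for Met-ENK minus β-END(1-9). Of 70 recomputed member differences other than 0, 64 kept their sign under 5 scalings, and the exceptions belong to Egfr and Hbegf. The 64 include values whose sign could not turn, since the planned span trend returned the deposited value of every member against control. In the orders higher and lower, counts over all named genes were 448 and 633 for Met-ENK minus control, 397 and 296 for β-END(1-9) minus control, and 377 and 459 for Met-ENK minus β-END(1-9). At 2-fold they were 67 and 81, 63 and 33, and 43 and 58. At the lower threshold they were 1578 and 1716, 1293 and 1314, and 1542 and 1551. Among genes above the background probe sets they were 22 and 365, 14 and 115, and 103 and 149. Among genes at or above the median level, they were 52 and 453, 42 and 171, and 142 and 203. With each array centred on its median, β-END(1-9) minus control had 334 and 368, so that 52.4% of calls were lower (42.7% as deposited). The thresholds and level filters test fewer genes or move the threshold. Removing the planned span trend changed little, since the median was exactly 0 in 20, 20 and 18 of 20 classes. With classes of genes above background, chosen after seeing the data, 42.9% of calls were lower for Met-ENK minus control (58.6% as deposited) and 31.8% for β-END(1-9) minus control. Signal near background limits Btc, Adam10, Adam19, Egf, Fos and Spry4.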
